A study of Mus musculus and Homo sapiens with 34 samples.

Results

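MC38 and CT26 are mouse colorectal carcinoma cell lines, derived in C57BL/6 and BALB/c mice and used as transplantable tumours in those strains. Spheroids grown from the cells alone, without added matrix, were compared here: 5 MC38 libraries (numbers 1 to 5) and 6 CT26 libraries (numbers 1 to 6), chosen by their labels and making up 11 of the 34 libraries of the series. The other libraries hold spheroids of the same lines cultured with SIS ECM, a decellularised matrix, and spheroids of the human line HT29. In both groups the cells were kept in RPMI medium with serum and formed spheroids for 7 days in round-bottom wells that prevent attachment. Each tube held 10 spheroids, and polyA RNA was sequenced. No treatment, transgene or edit is given for either group. The labels do not say whether the libraries of a line came from separate cultures, so each p-value is set against differences among libraries that may be technical only. Each line stands for 1 strain of origin and 1 culture history, and these cannot be told apart from the line.

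Colorectal carcinomas arise from the gut epithelium, whose cells are held together by E-cadherin, claudins and desmosomes, carry keratin filaments and owe their identity to transcription factors such as Cdx2. Carcinoma lines kept in culture can lose these features and take on mesenchymal ones, among them vimentin, Zeb1 and secreted matrix proteins. Type I interferon acts through its receptor and a complex of STAT factors and IRF9 to switch on antiviral effectors, and the same pathway raises MHC class I, which displays peptides to T cells.

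Library totals spanned 20302534 to 24127292 counts in MC38 and 16048726 to 20294975 counts in CT26. The 11 libraries separated by line on the first principal component (95.12% of the variance) and by number on the second (1.82%), which set libraries 1 to 3 of both lines apart from libraries 4 to 6. The labels give the numbers only and say nothing of a batch, so each fit carried a term for the range of the number. The range itself was called in 6175 genes (46%). The lines were compared for 13436 genes with the quasi-likelihood test of edgeR, p-values were adjusted over all of them by the Benjamini-Hochberg method, and a gene is called higher or lower in MC38 at an adjusted p below 0.05. Of these genes, 11597 were called (86.3%), 6074 of them higher (45.2%) and 5523 lower (41.1%), so a call alone says little about a gene here. A 2-fold call, which also needs a log2 difference of at least 1, was made for 4744 genes (35.3%), of which 2754 were higher (20.5%) and 1990 lower (14.8%). The median log2 difference (MC38 minus CT26) of all tested genes was 0.05, and the median of its absolute value was 0.67. In 8972 genes (66.8%) the libraries of the lines did not overlap. Library totals alone in place of TMM factors moved the median log2 difference of all genes to 0.24, and differences of this size or smaller carry no firm direction.

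**Figure D1:**
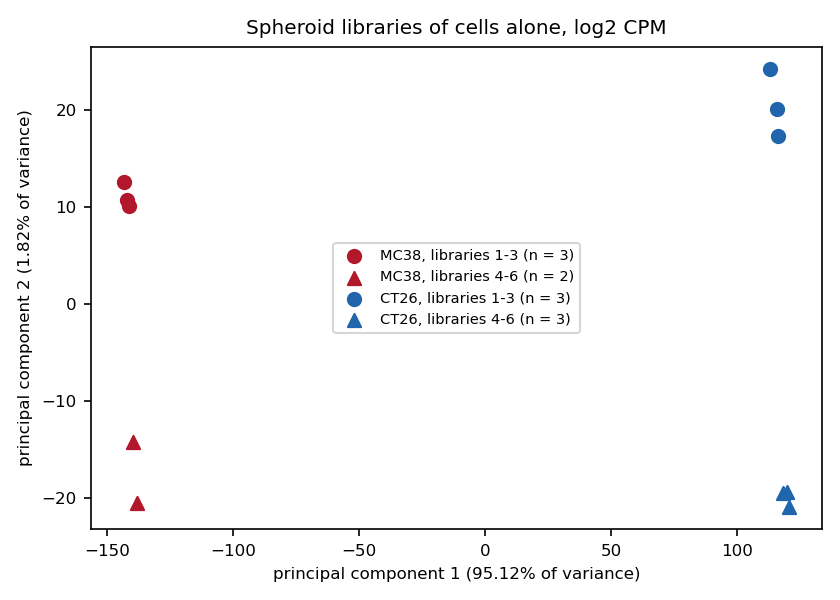
Principal components of the 11 libraries of cells alone, from log2 CPM, with component 1 on the horizontal and component 2 on the vertical axis, MC38 in red and CT26 in blue, circles for libraries 1 to 3 and triangles for libraries 4 to 6. The lines lie at opposite ends of component 1 (95.12% of the variance), and the number ranges lie at opposite ends of component 2 (1.82%).

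In the SIS ECM libraries, which are other libraries of the same lines, 10669 of 13548 genes (78.7%) were called between the lines. Of the 4744 genes called 2-fold in cells alone, 4611 were tested there, 4495 were called in the same direction and 6 were called in the opposite one. Across genes, the line difference in cells alone correlated with that in the SIS ECM libraries at r = 0.982 over 13268 genes, which are not independent replicates. Values below are CPM, the count of a gene scaled to a common library size with TMM factors. A value with ± in parentheses is a log2 difference, MC38 minus CT26, with its SE. For a gene at 0 in every library of a line, the fold is a lower bound against a floor of 3 counts over that group, and for 1 to 3 counts it is a ratio of CPM with a counting interval, since the fitted difference of such genes depends on the prior count.

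Many of the most different genes were on in one line and at or near 0 in the other. The highest genes by the naming rule included Postn, a secreted matrix protein that binds collagen, at 215, 204, 209, 269 and 261 CPM in MC38 against 0 CPM in all 6 CT26 libraries, a difference of at least 7950-fold. Edil3, a secreted integrin ligand, measured 226, 234, 247, 287 and 274 CPM in MC38 against 0 CPM in all 6 CT26 libraries, at least 8700-fold higher. Dclk1, a microtubule-associated kinase known as a tuft cell marker in the gut, reached 664, 660, 640, 587 and 538 CPM in MC38 and a single count in CT26, a ratio of 63500-fold (95% counting interval 11400 to 2510000). The naming rule took only genes whose libraries did not overlap, so the separation of the lines in these was set in advance. Pmp22, Ak4, Adgrg6, Adam19, Shisal2b, Gas1 and Slc6a15 had 0 counts in all 6 CT26 libraries too, and their bounds ran from at least 3970-fold for Slc6a15, an amino acid transporter, to at least 6130-fold for Pmp22, a peripheral myelin membrane protein.

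On the other side stood Baiap2l1, an adaptor that bends membranes at actin protrusions, with 0 CPM in all 5 MC38 libraries against 1100 to 1380 CPM, median 1240, in CT26, at least 49300-fold lower in MC38. Esm1, a secreted proteoglycan, had 0.0834, 0.0413, 0, 0 and 0 CPM in MC38 against 969 to 1120 CPM, median 1010, in CT26, and its CT26 level exceeded the MC38 level 40400-fold (95% counting interval 13800 to 196000). Ifi202b, an interferon-inducible DNA-binding protein, was at 0 CPM in all 5 MC38 libraries and at 128 to 248 CPM, median 188, in CT26, with the CT26 libraries 4 to 6 above libraries 1 to 3. Here too the naming rule set the separation of the lines in advance. Cadm1, Fer1l6, Cldn6, Zfp760, Nefm, Ttc9, Fzd6 and Krt20 were likewise without a count in MC38, with bounds from at least 1820-fold for Krt20 to at least 4340-fold for Fer1l6, and Clca3a1, a secreted protein of the chloride channel accessory family, had a log2 difference of -13.61 ± 0.1. In all, 439 genes with at least 1 CPM in MC38 had no count in any CT26 library, and 105 genes were so in CT26 alone. Trace counts were read over genes chosen to be near 0 in the other line, so a small share was set by that choice. Over the 21 genes with at least 100 CPM in MC38 and below 0.1 CPM in CT26, the CT26 libraries held 0.00365 to 0.0143% of the MC38 level. Over the 9 genes of the reverse kind, the MC38 libraries held 0.00117 to 0.00784% of the CT26 level, and the source of these traces was not tested.

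Many genes of colon epithelium were at or near 0 in both lines, while some were expressed in CT26. Epcam, the adhesion molecule used to mark carcinoma cells, had no count in any of the 11 libraries, and the colon keratin Krt8 averaged 0.00794 CPM in MC38 and 0.0495 CPM in CT26. Of 33 junction genes, 23 were below the count filter, including Ocln, Cldn3, Cldn4, Cldn7, Dsp and Cgn, and 10 of the 33 had no count in either line. Cdh1, encoding E-cadherin, was at 0.584, 0.868, 0.898, 0.567 and 0.516 CPM in MC38 and 0 CPM in all 6 CT26 libraries, at least 23.4-fold higher in MC38 but under 1 CPM throughout. Of 32 intestinal products, 31 had a row and 25 of these were below the filter, among them Vil1, Muc2 and Fabp1. The labels give colorectal carcinoma, a tumour of epithelium, as the cell type of both lines.

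The 4 tested keratins and most tested gut transcription factors were lower in MC38. Krt20, an intermediate filament of differentiated colon cells, had 0 CPM in all 5 MC38 libraries and 37.6 to 52.1 CPM, median 47.5, in CT26, at least 1820-fold lower in MC38. Krt18, the usual partner of Krt8, was at 0, 0, 0, 0.0872 and 0 CPM in MC38 and 5.54 to 9.66 CPM, median 7.14, in CT26, and the CT26 level exceeded that of MC38 435-fold (95% counting interval 120 to 3600). Krt80 (log2 difference -5.42 ± 0.15) and Krt10 (-3.19 ± 0.24) showed the same order in smaller measure. In none of these 4 keratins did the libraries of the lines overlap, beside 66.8% of all genes without overlap. All 4 passed the count filter through CT26 alone, which largely set both their direction and their lack of overlap. The other 11 of the 15 listed keratins were not tested. Among 31 gut and epithelial transcription factors, 11 were tested and 7 of them were at least 2-fold lower in MC38. Klf5, a factor of proliferating crypt cells, had 2.63, 2.81, 2.83, 2.66 and 2.18 CPM in MC38 against 47.5 to 61.2 CPM, median 54.4, in CT26 (log2 difference -4.4 ± 0.07, adjusted p = 1.4e-20). Gata4, an endoderm factor of the proximal gut, had 0 CPM in all 5 MC38 libraries against 4.01 to 6.86 CPM, median 4.5, in CT26, at least 198-fold lower. Cdx2 was at 0 CPM in all 5 MC38 libraries and 0.701 to 1.27 CPM, median 0.777, in CT26. Foxa1 (-3.34 ± 0.12), Grhl1 (-1.67 ± 0.24) and Trp63 (-1.55 ± 0.32) were also at least 2-fold lower, the last pair named after their values were seen.

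A few lineage genes stood on the MC38 side. Sox9, a factor of crypt base and progenitor cells, measured 109, 117, 98.4, 104 and 105 CPM in MC38 against 9.47 to 12.9 CPM, median 11.1, in CT26 (log2 difference 3.25 ± 0.07, adjusted p = 1.1e-18). Gata6, the endoderm relative of Gata4, had 2.84, 2.4, 2.38, 1.53 and 1.63 CPM in MC38 and 0 CPM in all 6 CT26 libraries, so each line had counts of 1 of these GATA factors and none of the other. Tfap2a, named after its value was seen, was the third factor called at least 2-fold higher (1.46 ± 0.07). Of the 10 tested junction genes, Cdh1, Cldn1 (ratio 247-fold, 95% counting interval 44 to 9800) and the desmosome protein Pkp1 (log2 difference 5.29 ± 0.14) were at least 2-fold higher in MC38, and Cldn6 (at least 2650-fold), Cldn12 (-1.78 ± 0.04) and Pard6b (-1.06 ± 0.13) were at least 2-fold lower. Of the intestinal products, Cdh17 (CT26 over MC38 107-fold, 95% counting interval 36.2 to 521), Ceacam1 (-6.18 ± 0.19), Anpep (-4.52 ± 0.34) and Lgals4 (-2.37 ± 0.24) were at least 2-fold lower in MC38, and Sis, encoding sucrase-isomaltase, was higher (3.22 ± 0.28).

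**Figure D2:**
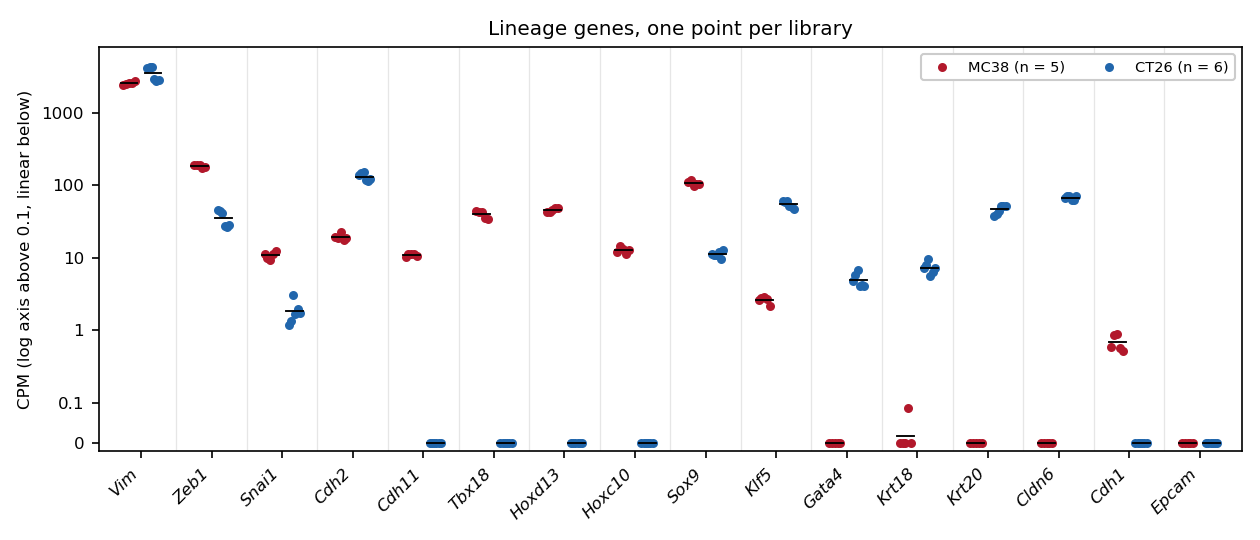
CPM of 16 lineage genes in each library, MC38 in red (5 points) and CT26 in blue (6 points), with a bar at the mean, on an axis that is logarithmic above 0.1 and linear below. Epcam is at 0 in both lines, Krt20 and Cldn6 are at 0 in MC38, and Hoxd13, Tbx18 and Cdh11 are at 0 in CT26.

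Both lines expressed mesenchymal genes, but not the same set. Vim, the intermediate filament of mesenchymal cells, had 2430, 2460, 2530, 2540 and 2720 CPM in MC38 and 2710 to 4260 CPM, median 3500, in CT26 (log2 difference -0.46 ± 0.09, adjusted p = 9.3e-05). Its CT26 libraries split by number, and the line difference was -0.73 in libraries 1 to 3 and -0.08 in libraries 4 to 6. Zeb1, a repressor of epithelial genes, was at 187, 191, 187, 173 and 176 CPM in MC38 and 26.8 to 44.9 CPM, median 34.9, in CT26 (log2 difference 2.36 ± 0.07, adjusted p = 8.4e-16). Snai1, another such repressor, was at 11.3, 9.92, 9.43, 11.3 and 12.3 CPM in MC38 and 1.2 to 3.1 CPM, median 1.7, in CT26 (2.54 ± 0.16). Every MC38 library of these repressors lay above every CT26 library. The relatives Snai2 (-0.78 ± 0.1), Zeb2 (-0.39 ± 0.04) and Twist1 (-1.46 ± 0.09), named after their values were seen, were lower in MC38. Cadherins differed in both directions. Cdh2, N-cadherin, had 19, 18.9, 22.7, 17.6 and 18.8 CPM in MC38 and 114 to 150 CPM, median 130, in CT26 (-2.77 ± 0.06, adjusted p = 1e-18). Cdh11, the cadherin of osteoblasts and fibroblasts, had 10.2, 11.2, 11.4, 11.1 and 10.5 CPM in MC38 and 0 CPM in all 6 CT26 libraries, at least 373-fold higher in MC38. Tbx18 and Foxf2, factors of mesenchymal precursors, were without a count in CT26 (at least 1360-fold and at least 186-fold higher in MC38). Over the whole list, 24 of 30 were tested, 7 were at least 2-fold higher and 5 at least 2-fold lower in MC38, with a median log2 difference of -0.29 beside 0.05 for all genes. S100a4, a calcium-binding protein of motile cells, did not differ by call (log2 difference -0.07 ± 0.03, adjusted p = 0.059), with overlapping libraries.

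Hox genes, which set position along the body axis and lie in clusters, differed cluster by cluster. In the HoxD cluster, all 7 tested genes were at least 2-fold higher in MC38, and 6 of its 9 genes had no count in CT26, of which 1 had none in MC38 either. Hoxd13, the most posterior of them, had 43.2, 42, 45.8, 48.7 and 47.7 CPM in MC38 and 0 CPM in all 6 CT26 libraries, at least 1560-fold higher, while Hoxd8 was expressed in both lines at 34.5, 39.1, 40.1, 33 and 33.4 CPM in MC38 and 9.47 to 15.2 CPM, median 12.7, in CT26 (1.51 ± 0.07, adjusted p = 3e-13). In the HoxC cluster, 5 of 8 tested genes were at least 2-fold higher and 6 of 9 had no count in CT26, again 1 of them with none in MC38 either, with Hoxc10 at 11.8, 14.6, 13.2, 11.3 and 12.9 CPM in MC38 against 0 CPM in all 6 CT26 libraries. HoxB ran the other way, with 9 of 10 genes without a count in MC38, although 3 of the 9 had none in CT26 either. All 4 tested genes, Hoxb3, Hoxb5, Hoxb6 and Hoxb9, named after their values were seen, were at least 2-fold lower. They passed the count filter through CT26 alone, which set their direction. In the same way, tested HoxC and HoxD genes without a count in CT26 passed through MC38 alone. HoxA was expressed in both lines, with 3 genes at least 2-fold higher and 2 at least 2-fold lower, among them Hoxa11, at least 172-fold higher, and Hoxa9, lower in MC38 (-1.68 ± 0.08). Hoxa4 and Hoxa7 were the other higher genes and Hoxa5 the other lower one, named after their values were seen.

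Wnt and stem cell genes split within the list. Lgr5, the receptor that marks crypt stem cells, was below the filter at 0.0246 CPM in MC38 and 0 in CT26. Of the effectors that bind beta-catenin, Tcf7 had 24, 25.8, 23.9, 18.9 and 20.8 CPM in MC38 and 0 CPM in all 6 CT26 libraries, and Tcf7l1 was also silent in CT26 (at least 373-fold higher in MC38). Wnt5a, a ligand of the non-canonical branch, had 76.3, 76.1, 77, 83.8 and 80.7 CPM in MC38 and 0 to 0.13 CPM, median 0, in CT26, a ratio of 2700-fold (95% counting interval 924 to 13100), whereas Wnt10a was at least 269-fold lower in MC38, and the R-spondin receptor Lgr6 was lower too (-6.92 ± 0.13, adjusted p = 2.2e-19). Ly6a, a marker of the fetal-like state of regenerating gut epithelium, had 116, 112, 119, 123 and 118 CPM in MC38 and 0.778 to 1.73 CPM, median 1.15, in CT26 (log2 difference 6.59 ± 0.09, adjusted p = 1.7e-21). All of these except Lgr5 separated the libraries completely. The other beta-catenin effectors were expressed in both lines and named after their values were seen, with Tcf7l2 lower in MC38 (-0.92 ± 0.06, adjusted p = 6.7e-11) and Lef1 close to equal with overlapping libraries (-0.2 ± 0.09). In total 20 of 36 were tested, 8 at least 2-fold higher and 3 at least 2-fold lower in MC38, and the receptor Cd44 and the feedback regulator Lrig1 were close to equal, at -0.15 ± 0.04 and -0.19 ± 0.05, with a sign that flipped under library totals alone.

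Markers of other cell types were read as a check on the lines. Of 14 fibroblast markers, 10 were tested, 7 were at least 2-fold higher and 2, the collagen I chains Col1a2 (-11.87 ± 0.11) and Col1a1 (-1.64 ± 0.12), at least 2-fold lower in MC38. Pdgfra, a receptor of stromal fibroblasts, was at 474, 476, 470, 396 and 403 CPM in MC38 and 14.8 to 23 CPM, median 18.1, in CT26 (4.55 ± 0.05, adjusted p = 4.4e-22). Dcn, the small collagen-binding proteoglycan decorin, was at 1000, 1020, 1030, 1180 and 1110 CPM in MC38 and 2.08 to 3.1 CPM, median 2.64, in CT26 (8.72 ± 0.07, adjusted p = 3.6e-24). The fibroblast list summed to 3470 to 4330 CPM in MC38 and 561 to 859 CPM in CT26, while its members Thy1, Lum, Pi16 and Mfap5 were below the filter in both. Smooth muscle markers were below the filter for 9 of 10, endothelial markers for 9 of 10 and leukocyte markers for 11 of 13. Kdr, Cd3e, Itgam and Myocd had no count in either line, and Acta2 and Ptprc stayed below 0.1 CPM on average. The exceptions were Smtn (1.96 ± 0.1) and Pecam1 (5.52 ± 0.31) above and Cd14 (-2.31 ± 0.13) and Cd68 (-1.48 ± 0.19) below in MC38. In bulk RNA, a larger number of cells of a type and more RNA per cell cannot be told apart.

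Most tested collagens and other matrix genes were higher in MC38. Of 22 fibrillar and associated collagens, 17 were tested, 13 were at least 2-fold higher and 4 at least 2-fold lower in MC38, with a median log2 difference of 7.45 beside 0.05 for all genes. Collagen VI forms beaded microfibrils around cells. Its chain Col6a3 had 1350, 1310, 1280, 1040 and 1100 CPM in MC38 and 0.0508 to 0.584 CPM, median 0.291, in CT26 (12.07 ± 0.11, adjusted p = 1.6e-23). Col6a2 had 1210, 1170, 1060, 805 and 932 CPM in MC38 and 0 to 0.191 CPM, median 0, in CT26 (14.46 ± 0.15, adjusted p = 8.8e-23). Col3a1, a fibrillar chain of compliant tissues, had 2600, 2600, 2520, 1720 and 1900 CPM in MC38 and 5.55 to 22.4 CPM, median 11, in CT26 (7.45 ± 0.16, adjusted p = 3.7e-18), and its log2 difference was 1.24 larger in libraries 4 to 6 than in libraries 1 to 3 (adjusted p = 2.6e-05). Col5a3, Col11a1 and Col27a1 had at most 1 count over the CT26 libraries. Each of these put all MC38 libraries above all CT26 libraries.

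The collagen I chains were lower in MC38, by very different amounts. Col1a2 had 0.0417, 0.289, 0.225, 0.131 and 0.0794 CPM in MC38 and 469 to 721 CPM, median 566, in CT26 (log2 difference -11.87 ± 0.11, adjusted p = 2.4e-23). Col1a1 had 7.68, 7.77, 6.29, 7.06 and 8.49 CPM in MC38 and 18.1 to 32.7 CPM, median 22, in CT26 (-1.64 ± 0.12, adjusted p = 1.9e-10). Per kilobase of exon, the Col1a1 level was 1.14 CPM in MC38 and 3.51 CPM in CT26, and the Col1a2 level was 0.0123 CPM in MC38 and 46.4 CPM in CT26. Collagen I is usually a trimer of both chains. The other lower members were Col8a1, a short-chain collagen (-1.64 ± 0.06), and Col11a2 (-3.19 ± 0.44), which was named after its value was seen.

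**Figure D3:**
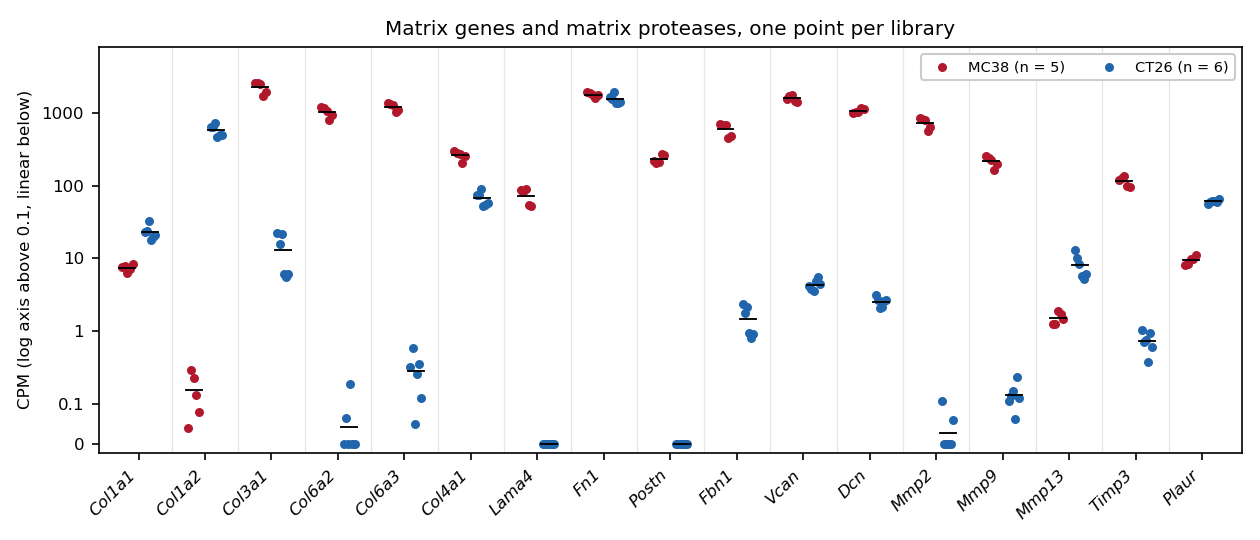
CPM of 17 genes of matrix proteins and matrix proteases in each library, MC38 in red (5 points) and CT26 in blue (6 points), with a bar at the mean, on an axis that is logarithmic above 0.1 and linear below. Postn and Lama4 are at 0 in CT26, Fn1 overlaps between the lines, and Col1a1, Col1a2, Mmp13 and Plaur are lower in MC38.

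Laminin and collagen IV chains of the basement membrane differed in both directions. Of 22 chains, 17 were tested, 9 at least 2-fold higher and 5 at least 2-fold lower in MC38 (median log2 difference 1.12). Lama4, the laminin chain of vessels and mesenchyme, had 86.2, 81.6, 90.6, 54.1 and 52.5 CPM in MC38 and 0 CPM in all 6 CT26 libraries, at least 2490-fold higher in MC38. Lamb3 (-4.61 ± 0.42) and Lama3 (-3.57 ± 0.13, named after its value was seen), chains of an epithelial laminin, were lower in MC38. Lama2, the muscle laminin chain, had 0.501, 0.372, 0.27, 0.131 and 0.198 CPM in MC38 and 26.4 to 36 CPM, median 30.2, in CT26 (-6.7 ± 0.16, adjusted p = 8e-18), and the ubiquitous Lamb1 (-0.64 ± 0.04) and Lamc1 (-0.33 ± 0.06) differed little. The collagen IV chain Col4a1 had 303, 284, 275, 204 and 252 CPM in MC38 and 52.2 to 88.5 CPM, median 65.8, in CT26 (1.95 ± 0.06, adjusted p = 1.5e-15). All of these except Lamb1 and Lamc1 separated the lines by more than 2-fold with no overlap.

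Among 32 matrix glycoproteins, 27 were tested, 18 at least 2-fold higher and 5 at least 2-fold lower in MC38 (median log2 difference 2.39). Fn1, encoding fibronectin, was abundant in both, at 1920, 1880, 1770, 1580 and 1740 CPM in MC38 and 1350 to 1950 CPM, median 1470, in CT26 (log2 difference 0.18 ± 0.06, adjusted p = 0.0058), with overlapping libraries. Fbn1, the microfibril protein fibrillin 1, had 706, 684, 671, 449 and 473 CPM in MC38 and 0.818 to 2.34 CPM, median 1.35, in CT26 (8.58 ± 0.08, adjusted p = 1.9e-23). Tnc, tenascin C of healing tissue, had 144, 139, 141, 116 and 129 CPM in MC38 and 0.195 to 0.762 CPM, median 0.369, in CT26 (8.29 ± 0.1, adjusted p = 7.9e-22). Both lay far above CT26 in every MC38 library, as did Tgfbi (8.18 ± 0.07). Spp1, osteopontin, was high in both lines and lower in MC38 (-0.62 ± 0.04), and Npnt, Fbln5, Ltbp1, Tnxb and Fbln2, named after their values were seen, were the 5 members at least 2-fold lower. Of 21 proteoglycans, 14 were tested, 11 at least 2-fold higher and 1, Ogn (-6.12 ± 0.11, named after its value was seen), lower. Vcan, the large aggregating proteoglycan versican, had 1550, 1680, 1730, 1470 and 1420 CPM in MC38 and 3.51 to 5.49 CPM, median 4.26, in CT26 (8.48 ± 0.09, adjusted p = 8.8e-23). Cspg4, known as NG2, had 92.7, 86.9, 81.4, 56.6 and 67.7 CPM in MC38 and 0 to 0.18 CPM, median 0.0293, in CT26 (10.42 ± 0.18, adjusted p = 1.1e-19).

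Most tested enzymes that build or cut matrix were higher in MC38 too. Of 22 matrix metalloproteinases and their TIMP inhibitors, 14 were tested, 12 at least 2-fold higher and 2 at least 2-fold lower in MC38, with a median log2 difference of 5.79 (5.05 with silent genes at their bounds). Mmp2, the gelatinase A of stromal cells, had 835, 823, 803, 559 and 635 CPM in MC38 and 0 to 0.109 CPM, median 0, in CT26, a ratio of 25100-fold (95% counting interval 8580 to 122000). Mmp9, gelatinase B, had 251, 240, 223, 165 and 195 CPM in MC38 and 0.0637 to 0.234 CPM, median 0.125, in CT26 (10.53 ± 0.11, adjusted p = 1.2e-22). Mmp16, a membrane-bound member, was without a count in CT26 (at least 1520-fold higher in MC38), and the collagenase Mmp13 was the lower protease, at 1.25, 1.24, 1.89, 1.7 and 1.47 CPM in MC38 and 5.2 to 12.9 CPM, median 7.23, in CT26 (-2.45 ± 0.18, adjusted p = 2.9e-10). The inhibitor Timp3, which binds matrix, was higher, at 121, 127, 134, 99.8 and 95.2 CPM in MC38 and 0.382 to 1.03 CPM, median 0.738, in CT26 (7.23 ± 0.09, adjusted p = 1.1e-21), and Timp1, named after its value was seen, was lower (-1.96 ± 0.05). In the plasminogen system, the activator Plat had 82.6, 80.9, 87.1, 78.4 and 84.6 CPM in MC38 and 1.59 to 6.48 CPM, median 3.95, in CT26 (4.33 ± 0.17, adjusted p = 1.8e-14). The urokinase receptor Plaur had 8.18, 8.47, 9.75, 9.81 and 11.1 CPM in MC38 and 56.2 to 66.3 CPM, median 61, in CT26 (-2.68 ± 0.06, adjusted p = 1.1e-17). The urokinase gene Plau, named after its value was seen, was low in both lines. It had 1.44 to 2.13 CPM, median 1.75, in MC38 and 0 to 0.0544 CPM, median 0, in CT26. Of 18 collagen-processing enzymes, 15 were tested, 8 at least 2-fold higher and 1, the lysyl oxidase relative Loxl4 (-3.95 ± 0.07), lower, while the prolyl hydroxylase P4ha1 did not differ by call (0.07 ± 0.04, adjusted p = 0.12).

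Integrins, which bind these proteins, also differed in a subset. Of 24 receptors, 19 were tested, 7 at least 2-fold higher and 3 at least 2-fold lower in MC38 (median log2 difference 0.48). Itga1, a collagen receptor chain, had 28.5, 25.7, 29.3, 29.8 and 29 CPM in MC38 and 0 CPM in all 6 CT26 libraries. Itga8, which binds fibronectin and nephronectin, had 80.6, 79.1, 90.5, 72 and 72.5 CPM in MC38 and a single count in CT26 (ratio 8110-fold, 95% counting interval 1450 to 320000). Itgb7, a chain of lymphocyte integrins, was lower (-5.48 ± 0.22), with Itga6 (-2.22 ± 0.04) and Itga3 (-1.71 ± 0.09), chains that bind laminin, named after their values were seen. Itgb5 did not differ by call, at 37.9, 33, 31.8, 27.1 and 36.2 CPM in MC38 and 25.3 to 46.2 CPM, median 33, in CT26 (-0.04 ± 0.1, adjusted p = 0.7).

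Most tested genes of interferon sensing, signalling and response were higher in MC38. No interferon gene passed the count filter: Ifnb1 averaged 0.0671 CPM in MC38 and 0 in CT26, and Ifna4, Ifng, Ifnl2 and Ifnl3 were at 0 or near it in both. Of the cytosolic sensors, the RNA helicase Ifih1 had 73.9, 71.6, 71.9, 67.6 and 69.3 CPM in MC38 and 5.22 to 12 CPM, median 8.62, in CT26 (3.02 ± 0.11, adjusted p = 1.2e-14), and its relative Dhx58 was higher in MC38 too (3.78 ± 0.13). Zbp1, a sensor of Z-form nucleic acid, was at 54.9, 53, 55.5, 58 and 58.4 CPM in MC38 and 0.661 to 1.72 CPM, median 1.11, in CT26 (5.6 ± 0.11, adjusted p = 1.1e-18). The DNA sensor Aim2 was the opposite, at 0.0834, 0, 0.0449, 0.131 and 0 CPM in MC38 and 42.7 to 57.6 CPM, median 50.4, in CT26 (-9.75 ± 0.17, adjusted p = 9.2e-20). Cgas, the sensor that makes the STING ligand, was close to equal at 32.7, 33.5, 34.1, 37.7 and 34.4 CPM in MC38 and 31.1 to 32.9 CPM, median 32.2, in CT26 (0.1 ± 0.05). It was called by a small margin and lost the call under most alternatives. These included the fit with the numbers as pairs (0.09, adjusted p = 0.155 by edgeR) and DESeq2 (0.099, adjusted p = 0.0703). The kinase Tbk1 downstream of it did not differ by call (-0.06 ± 0.04, adjusted p = 0.15). In all, 20 of 22 sensors and adaptors were tested, 8 at least 2-fold higher and 2 at least 2-fold lower, Aim2 and Ifi204 (-2.98 ± 0.05, named after its value was seen). The median log2 difference of the list was 0.50.

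Of 27 interferons, receptors and signalling factors, 19 were tested, 11 at least 2-fold higher and none at least 2-fold lower in MC38 (median log2 difference 1.38). Irf1, a factor induced by interferon gamma, had 201, 189, 204, 162 and 179 CPM in MC38 and 19.4 to 26.2 CPM, median 22.4, in CT26 (3.02 ± 0.05, adjusted p = 4e-20). Irf7, which amplifies the type I response, had 23, 16.2, 18, 21.1 and 21.7 CPM in MC38 and 1.46 to 3.96 CPM, median 2.28, in CT26 (2.97 ± 0.16, adjusted p = 2.2e-12). The receptor chain Ifnar1 differed much less (0.39 ± 0.04), although its libraries too did not overlap, and the kinase Jak2 was close to equal (-0.14 ± 0.04).

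All 39 interferon-stimulated effector genes were tested, and 30 were at least 2-fold higher and 2 at least 2-fold lower in MC38 (20.5% and 14.8% of all genes). Their median log2 difference was 2.04, beside 0.05 for all genes. In 35 of 39 the libraries did not overlap, beside 66.8% of all genes. Cxcl10, a chemokine for activated T cells, had 52.9, 46.6, 53.6, 80.4 and 76.9 CPM in MC38 and 0.292 to 0.653 CPM, median 0.469, in CT26 (7.05 ± 0.12, adjusted p = 6.1e-20). Rsad2, the antiviral enzyme viperin, had 65.7, 52.7, 68.4, 63.2 and 58.2 CPM in MC38 and 0.318 to 1.42 CPM, median 0.93, in CT26 (6.02 ± 0.14, adjusted p = 9.3e-18). Ifit3, a partner in binding viral RNA, had 108, 88.9, 115, 149 and 145 CPM in MC38 and 1.52 to 3.1 CPM, median 2.75, in CT26 (5.56 ± 0.12, adjusted p = 4.5e-18). Isg15, the ubiquitin-like modifier, had 34.7, 26.3, 32.4, 42.7 and 44.8 CPM in MC38 and 2.53 to 4.73 CPM, median 3.17, in CT26 (3.4 ± 0.14, adjusted p = 3.7e-14), and the GTPase Mx1 (6.14 ± 0.15) and the kinase Cmpk2 (5.17 ± 0.18) were higher by more. Every MC38 library of these 6 genes lay above every CT26 library. Epsti1 was the counter-example, with 0 CPM in all 5 MC38 libraries and 2.44 to 4.21 CPM, median 3.9, in CT26, at least 139-fold lower in MC38, and Ifitm1 (-1.88 ± 0.21), named after its value was seen, was the other lower one. Samd9l (0.27 ± 0.09) and Sp100 (0.28 ± 0.09) differed least among the abundant members, and Samd9l was not called with the numbers as pairs (0.22, adjusted p = 0.0554). Ifit3 and Ifit3b, and Oas1a and Oas1g, are near-identical copies, and how the counting split their reads is uncertain.

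The guanylate-binding proteins and immunity-related GTPases, which attack the vacuoles of intracellular pathogens and respond mostly to interferon gamma, were higher in MC38 with 1 exception. All 18 were tested, 17 were at least 2-fold higher and 1 at least 2-fold lower, with a median log2 difference of 4.48. Iigp1 had 31, 31, 34.7, 59.7 and 54.4 CPM in MC38 and 0.241 to 1.14 CPM, median 0.451, in CT26 (6.27 ± 0.2, adjusted p = 9.5e-16). Gbp6 had 46.9, 43.5, 48.1, 51.4 and 47.4 CPM in MC38 and 0.255 to 1.09 CPM, median 0.712, in CT26 (6.1 ± 0.13, adjusted p = 2e-18). Gbp7 had 122, 110, 120, 132 and 124 CPM in MC38 and 8.21 to 14.2 CPM, median 10.6, in CT26 (3.44 ± 0.09, adjusted p = 1e-16). Gvin1 was without a count in CT26 (at least 275-fold higher in MC38). Gbp2b alone was lower, at 0.0417, 0, 0, 0 and 0 CPM in MC38 and 4.63 to 10.3 CPM, median 7.72, in CT26, the CT26 level exceeding that of MC38 925-fold (95% counting interval 166 to 36600), while its neighbour Gbp2, named after its value was seen, was higher (4.63 ± 0.09). No library of one line reached the other line in any of the 18 genes, beside 66.8% of all genes without overlap. Tgtp1 and Tgtp2 are near-identical, so their split is uncertain.

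The promoters of 6 of these genes are shown because of letters that factors activated by interferon are known to bind. The 250 bases before each start, from RefSeq on GRCm38.p6, were searched on both strands for the core of the interferon-stimulated response element, written as GAAA, any 2 bases, and GAAA again, whose matches can overlap each other. The reference genome is that of C57BL/6J, and the sequence in either line was not read. Capitals mark the matches.
Isg15, chr4:156200819-156201068, minus strand: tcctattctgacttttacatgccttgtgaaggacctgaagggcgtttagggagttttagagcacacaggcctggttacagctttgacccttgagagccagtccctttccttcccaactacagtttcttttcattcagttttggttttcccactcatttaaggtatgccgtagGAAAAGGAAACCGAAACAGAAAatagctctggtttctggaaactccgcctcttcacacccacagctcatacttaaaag
Ifit3, chr19:34583279-34583528, plus strand: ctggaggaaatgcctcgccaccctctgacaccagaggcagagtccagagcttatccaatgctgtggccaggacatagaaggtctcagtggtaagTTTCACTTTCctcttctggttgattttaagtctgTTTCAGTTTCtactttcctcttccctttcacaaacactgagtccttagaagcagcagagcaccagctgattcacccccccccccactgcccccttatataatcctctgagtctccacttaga
Rsad2, chr12:26456453-26456702, minus strand: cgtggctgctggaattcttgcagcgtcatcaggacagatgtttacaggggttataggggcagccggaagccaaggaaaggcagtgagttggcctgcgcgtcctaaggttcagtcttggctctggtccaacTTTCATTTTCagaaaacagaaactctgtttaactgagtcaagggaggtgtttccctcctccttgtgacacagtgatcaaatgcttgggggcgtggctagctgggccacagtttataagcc
Cxcl10, chr5:92348890-92349139, minus strand: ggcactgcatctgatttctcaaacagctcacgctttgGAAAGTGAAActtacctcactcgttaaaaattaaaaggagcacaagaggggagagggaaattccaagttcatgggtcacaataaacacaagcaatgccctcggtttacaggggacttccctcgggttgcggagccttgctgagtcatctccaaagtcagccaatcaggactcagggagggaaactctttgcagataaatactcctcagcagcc
Gbp2, chr3:142620413-142620662, plus strand: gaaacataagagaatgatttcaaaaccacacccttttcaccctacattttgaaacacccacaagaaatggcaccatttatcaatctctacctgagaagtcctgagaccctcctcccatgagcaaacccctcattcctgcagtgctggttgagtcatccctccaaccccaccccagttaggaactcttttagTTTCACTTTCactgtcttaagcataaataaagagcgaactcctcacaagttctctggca
Gbp2b, chr3:142594597-142594846, plus strand: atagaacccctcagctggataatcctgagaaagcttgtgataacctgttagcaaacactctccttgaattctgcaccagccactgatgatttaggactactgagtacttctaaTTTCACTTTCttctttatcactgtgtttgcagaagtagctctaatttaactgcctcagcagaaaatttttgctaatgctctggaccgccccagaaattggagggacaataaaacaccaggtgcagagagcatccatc

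Isg15 held 3 matches that overlap, Ifit3 held 2, and the others held 1 each. Gbp2, which was higher in MC38, and Gbp2b, which was lower, both carried the letters, so the letters do not tell the direction in this pair. Of the 39 effector genes, 31 had an entry in the promoter table and 13 of them (41.9%) held a match, 12 of 26 among those higher in MC38 and 0 of 3 among those lower. Of the GTPases, 10 of 10 with an entry held a match. The share among all 27025 genes of the table was 3.46%. Searches were also made for 2 other lists. CAGGTG, bound by SNAI and ZEB repressors, was in 10 of 21 junction genes with an entry (47.6%), against 19.4% of all genes, and TCACNCCAC, the sterol response element, was in 1 of 17 cholesterol genes (5.9%), against 1.22% of all genes. A match is a description of the letters only.

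The size of the interferon difference moved with the number range. The median log2 difference of the effector genes was 1.84 in libraries 1 to 3, 2.34 in libraries 4 to 6 and 1.31 in the SIS ECM libraries, and for the GTPases it was 4.23, 5.01 and 3.42. Of all 13436 genes, 1222 (9.09%) had a line difference that itself differed between the ranges, and among the 39 effector genes 18 did, each with a larger MC38 minus CT26 value in libraries 4 to 6, while among the 18 GTPases 8 did. The count over all genes was 520 to 1550 when 1 library was left out, and the count without each library is given with the genes that depend on the range. Isg15 had log2 differences of 3.03 in libraries 1 to 3 and 3.89 in libraries 4 to 6. The share of mitochondrial counts also moved with the range. In libraries 1 to 3 it spanned 3.42 to 3.752% in MC38 and 4.824 to 5.011% in CT26, and in libraries 4 to 6 it spanned 5.707 to 7.236% in MC38 and 7.87 to 8.286% in CT26, and its part in the interferon values was not tested. The SIS ECM values come from other libraries of the same lines, and the difference between cultures in the size of the line difference was not tested.

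**Figure D4:**
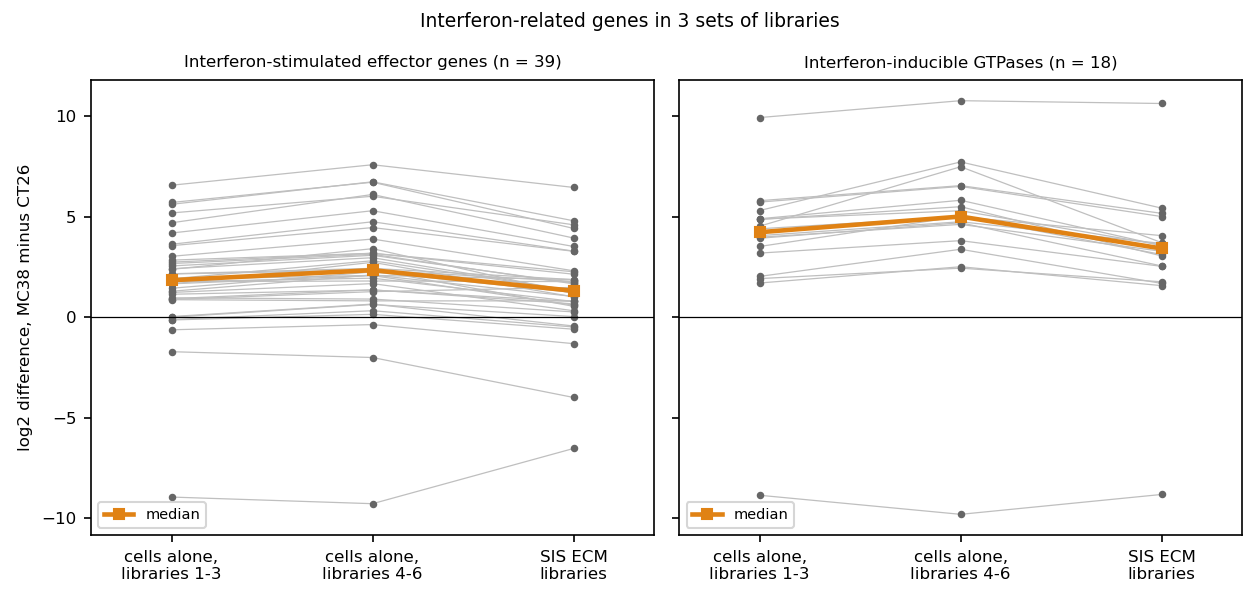
Log2 difference between MC38 and CT26 (vertical axis) of each effector gene (left panel, 39 genes) and each GTPase (right panel, 18 genes) in libraries 1 to 3, libraries 4 to 6 and the SIS ECM libraries, with a line per gene and the median in orange. The medians are 1.84, 2.34 and 1.31 for the effector genes and 4.23, 5.01 and 3.42 for the GTPases.

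Most MHC class I genes were higher in MC38. Of 12 heavy chains tested, 9 were at least 2-fold higher and 1, H2-Q1, lower in MC38 (median log2 difference 2.94), and of 16 tested processing and class II genes 11 were at least 2-fold higher and none lower. The classical chain H2-K1 had 664, 653, 656, 565 and 602 CPM in MC38 and 51.1 to 59.9 CPM, median 52.7, in CT26 (3.52 ± 0.04, adjusted p = 3.2e-22). H2-D1 had 534, 532, 513, 478 and 544 CPM in MC38 and 147 to 199 CPM, median 164, in CT26 (1.63 ± 0.05, adjusted p = 1e-15). The light chain B2m had 1600, 1600, 1670, 2020 and 1830 CPM in MC38 and 444 to 552 CPM, median 488, in CT26 (1.85 ± 0.04, adjusted p = 1.1e-18). These 3 separated the lines in every library. Psmb8, a subunit of the immunoproteasome that cuts peptides for display, had 117, 119, 124, 121 and 139 CPM in MC38 and 0.722 to 2.64 CPM, median 1.77, in CT26 (6.17 ± 0.12, adjusted p = 6e-19), and the peptide transporter Tap1 was higher (2.97 ± 0.09). Nlrc5, the transactivator of class I genes, had 73.3, 73.1, 70.5, 59 and 51.1 CPM in MC38 and 2.29 to 4.27 CPM, median 3.8, in CT26 (4.17 ± 0.11, adjusted p = 5.7e-17). Among the non-classical chains, H2-T22 (2.93 ± 0.05), H2-T23 (2.96 ± 0.1), H2-Q4 (3.66 ± 0.05), H2-Q5 (4.95 ± 0.21), H2-Q6 (5.83 ± 0.12), H2-Q7 (7.79 ± 0.1) and H2-Q10 (1.8 ± 0.22) were at least 2-fold higher, and H2-T10 (0.99 ± 0.07) and H2-M3 (0.26 ± 0.07) differed less. H2-Q1 had 1 count over the MC38 libraries and 1.05 to 2.07 CPM in CT26. MHC class I haplotypes differ between the strains of origin, reads of both lines were counted on 1 reference, and a difference in expression and one in matching the reference cannot be told apart for these genes. The class II genes Ciita, Cd74, H2-Aa, H2-Ab1 and H2-Eb1 were below the filter in both lines.

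Several chemokines were on in MC38 and near 0 in CT26. Of 37 chemokines and cytokines, 17 were tested, 9 at least 2-fold higher and 3 at least 2-fold lower in MC38, with a median log2 difference of 6.36 (5.53 with silent genes at their bounds). Ccl2, which draws monocytes, had 43.8, 48.9, 49.3, 75.8 and 72.2 CPM in MC38 and 0 to 0.109 CPM, median 0.0293, in CT26 (10.38 ± 0.16, adjusted p = 1.7e-20). Its neighbour Ccl7 had 20.4, 23.3, 21.7, 35.7 and 31.7 CPM in MC38 and a single count in CT26 (ratio 2740-fold, 95% counting interval 491 to 108000). Cx3cl1 and the lymphatic growth factor Vegfc were without a count in CT26, at least 333-fold and at least 409-fold higher in MC38. Ccl2 and Ccl7 were higher in MC38 libraries 4 and 5 than in libraries 1 to 3. Il11, a cytokine of the IL-6 family, was lower at 1, 0.454, 0.809, 1.31 and 0.952 CPM in MC38 and 12.7 to 18.5 CPM, median 15.8, in CT26 (-4.07 ± 0.13, adjusted p = 5.8e-16), with Ccl9 (-1.98 ± 0.33) and Lif (-1.16 ± 0.07), named after their values were seen. Vegfa, the endothelial growth factor, was nearly equal (-0.17 ± 0.05), with a sign that flipped under library totals alone. Il6, Tnf and Il1b were below the filter in both lines.

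Ligands that restrain or engage lymphocytes differed in both directions, with 16 of 25 tested, 6 at least 2-fold higher and 5 at least 2-fold lower in MC38 (median log2 difference 0.19). Cd200, an inhibitory ligand for myeloid cells, had 32.5, 32.5, 34.2, 40.8 and 39.2 CPM in MC38 and 0 CPM in all 6 CT26 libraries. Nt5e, the adenosine-producing enzyme CD73, had 10.8, 10.9, 12.8, 10.6 and 9.52 CPM in MC38 and a single count in CT26 (ratio 1120-fold, 95% counting interval 201 to 44300). Cd274, encoding PD-L1 and named after its value was seen, had 29.1, 25.2, 29.5, 30.1 and 27.8 CPM in MC38 and 3.79 to 5.2 CPM, median 4.18, in CT26 (2.71 ± 0.08, adjusted p = 4.1e-16). Cd80, a ligand of CD28 and CTLA-4, was lower, at 0.0834, 0, 0.0898, 0.0872 and 0 CPM in MC38 and 18 to 25.3 CPM, median 19.8, in CT26 (-8.55 ± 0.21, adjusted p = 2.3e-17), and Ptgs2, the prostaglandin enzyme COX-2 (named after its value was seen), was lower at 33.1, 33.4, 37.1, 31.8 and 30.4 CPM in MC38 and 886 to 1380 CPM, median 1070, in CT26 (-5.09 ± 0.07, adjusted p = 5.5e-21). The stress ligands of the receptor NKG2D were divided, with Raet1d and Raet1e without a count in CT26 and H60b near 0 in MC38 (2 counts, CT26 over MC38 177-fold, 95% counting interval 48.7 to 1470), and Ulbp1, named after its value was seen, lower (-3.28 ± 0.06). Raet1 and H60 genes form families of near copies that vary between strains, so these splits are uncertain. Cd47, the signal that limits phagocytosis, differed little (0.13 ± 0.04).

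Metabolic lists held a few large differences among many small ones. Of 23 genes of glycolysis and lactate export, 22 were tested, 5 at least 2-fold higher and 2 at least 2-fold lower in MC38 (median log2 difference 0.15). Ldhb, the lactate dehydrogenase chain of oxidative tissues, had 36.1, 33.3, 33.6, 36.8 and 43.4 CPM in MC38 and a single count in CT26 (ratio 3780-fold, 95% counting interval 679 to 149000). Pfkfb3, which makes the activator of phosphofructokinase, had 25.7, 25.4, 25.3, 20.9 and 21 CPM in MC38 and 0.351 to 0.764 CPM, median 0.528, in CT26 (5.38 ± 0.12, adjusted p = 3.8e-18). The lactate exporter Slc16a3 had 152, 145, 147, 140 and 174 CPM in MC38 and 24.4 to 35.5 CPM, median 31.9, in CT26 (2.29 ± 0.07, adjusted p = 1.3e-15). Eno2, the neuronal enolase, was lower at 1.21, 0.992, 0.719, 1.26 and 1.15 CPM in MC38 and 126 to 220 CPM, median 178, in CT26 (-7.27 ± 0.09, adjusted p = 1.7e-21), with Pgk1 (-1.41 ± 0.04), named after its value was seen. The glucose transporter Slc2a1 differed little (0.37 ± 0.06). Gapdh did not differ by call, at 2050, 2040, 2110, 2080 and 2420 CPM in MC38 and 1890 to 2370 CPM, median 2200, in CT26 (-0.02 ± 0.06, adjusted p = 0.71). Summed over the list, the level was 12400 to 14100 CPM in MC38 and 17100 to 20700 CPM in CT26, while the median of the genes, at 0.15, carries no firm direction.

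Of 20 hypoxia targets outside glycolysis, 18 were tested, 5 at least 2-fold higher and 4 at least 2-fold lower in MC38 (median log2 difference -0.30). The prolyl hydroxylase Egln3, an oxygen sensor that is itself induced by HIF, had 169, 164, 162, 117 and 119 CPM in MC38 and 0.0585 to 0.127 CPM, median 0.105, in CT26 (10.43 ± 0.09, adjusted p = 1.2e-23). The carbonic anhydrases stood on the CT26 side, with Car9 at 18.1, 20.4, 20.8, 14.3 and 12.2 CPM in MC38 and 70.5 to 133 CPM, median 99.1, in CT26 (-2.61 ± 0.06, adjusted p = 7.1e-18). Car12 was at 0, 0.0413, 0.0898, 0.0872 and 0 CPM in MC38 and 16.7 to 24.8 CPM, median 21.2, in CT26 (-8.79 ± 0.2, adjusted p = 5.8e-18). Egln3 and the carbonic anhydrases separated all libraries in opposite directions. Hif1a, the oxygen-regulated subunit, had a log2 difference of -0.07 ± 0.05 (adjusted p = 0.18), with overlapping libraries.

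Respiratory chain genes differed little in the nucleus-encoded set, where 28 of 28 were tested and 1 each, Ndufv1 of complex I (1.25 ± 0.05) and Cox7a1 of complex IV (-1.83 ± 0.26), was at least 2-fold higher and lower in MC38, with a median log2 difference of -0.03. Of 13 mitochondrially encoded genes, 9 were lower and 1 higher in MC38 by call (median log2 difference -0.66), with mt-Nd2 at 1240, 1360, 1380, 3180 and 2300 CPM in MC38 and 3750 to 7880 CPM, median 5680, in CT26 (-1.52 ± 0.06, adjusted p = 7.5e-14). Over all 11 libraries, mt-Nd2 was the 1 gene of the 13 whose libraries did not overlap between the lines, beside 66.8% of all genes. Mitochondrial counts were 3.629 ± 0.182% of the total in MC38 and 4.932 ± 0.0965% in CT26 in libraries 1 to 3 (SD, n = 3 each), and 6.472 ± 1.08% in MC38 (n = 2) and 8.138 ± 0.233% in CT26 (n = 3) in libraries 4 to 6. An exact permutation test within ranges, two-sided, gave a difference of -1.485 percentage points with p = 0.005, the smallest p its 200 splits allow, and a test over all 462 splits gave -1.769 points with p = 0.115.

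Lipid genes differed in both directions. Of 25 cholesterol genes, 24 were tested, 4 at least 2-fold higher and 1 at least 2-fold lower in MC38 (20.8% of those tested, beside 35.3% of all genes, with a median log2 difference of 0.10). Dhcr7, an enzyme late in the pathway, had 42.6, 47.9, 43.3, 38 and 37.8 CPM in MC38 and 10.5 to 16.3 CPM, median 12.6, in CT26 (1.67 ± 0.06, adjusted p = 1.2e-14). Insig1, the sterol-regulated anchor of SREBP, was lower at 72.4, 79.4, 79.5, 57.5 and 58.4 CPM in MC38 and 123 to 239 CPM, median 185, in CT26 (-1.42 ± 0.07, adjusted p = 7e-13). Both genes separated the libraries of the lines. Of 24 fatty acid genes, 21 were tested, 5 at least 2-fold higher and 3 at least 2-fold lower (38.1% of those tested). Fabp5, a fatty acid carrier, had 27.5, 26.4, 29, 36.9 and 40.2 CPM in MC38 and 0 CPM in all 6 CT26 libraries. Fasn, the fatty acid synthase, had 339, 348, 318, 249 and 313 CPM in MC38 and 107 to 160 CPM, median 122, in CT26 (1.3 ± 0.07, adjusted p = 1.4e-12). Scd1, the desaturase of stearate, was lower at 464, 501, 488, 330 and 338 CPM in MC38 and 806 to 1780 CPM, median 1220, in CT26 (-1.57 ± 0.07, adjusted p = 3.6e-13). Its CT26 libraries 1 to 3 held 1630 to 1780 CPM and libraries 4 to 6 held 806 to 815 CPM.

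More amino acid genes were called lower in MC38 than higher, but the median of the list carries no firm direction. Of 29 serine, one-carbon and ATF4 target genes, all were tested, 9 were higher and 17 lower by call. Over all genes, 45.2% were called higher and 41.1% lower. In the list, 3 were at least 2-fold higher and 7 at least 2-fold lower in MC38 (median log2 difference -0.24). Asns, asparagine synthetase, had 168, 172, 187, 172 and 172 CPM in MC38 and 561 to 622 CPM, median 601, in CT26 (-1.77 ± 0.04, adjusted p = 9.5e-18). Glul, glutamine synthetase, had 27.6, 27.7, 28.3, 22.5 and 25.4 CPM in MC38 and 71.1 to 98.9 CPM, median 83.8, in CT26 (-1.7 ± 0.05, adjusted p = 2.6e-16), and the mitochondrial folate enzyme Mthfd2 was lower too (-1.38 ± 0.05). Ass1, which makes argininosuccinate and lets cells grow without arginine, was at 6.97, 7.02, 5.17, 3.92 and 3.85 CPM in MC38 and 0 CPM in all 6 CT26 libraries, at least 185-fold higher in MC38, and the stress factor Atf3 was silent in CT26 as well (at least 68.9-fold). Of 35 NRF2, glutathione and detoxification genes, 28 were tested, 8 at least 2-fold higher and 3 at least 2-fold lower (median log2 difference 0.57). Nqo1, a quinone reductase, was higher at 40.9, 45, 49.4, 52.9 and 52.7 CPM in MC38 and 2.66 to 4.01 CPM, median 3.65, in CT26 (3.77 ± 0.08, adjusted p = 2.3e-18). Gsta4, a glutathione transferase for lipid aldehydes, ran against this at 0.0834, 0.0413, 0, 0.0872 and 0 CPM in MC38 and 10.5 to 12.3 CPM, median 11.8, in CT26 (-7.88 ± 0.22, adjusted p = 9.9e-17), and the NRF2 target Txnrd1 did not differ by call (-0.07 ± 0.04, adjusted p = 0.12). Nnt, a mitochondrial transhydrogenase, was expressed in both lines (-0.2 ± 0.07).

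Cell cycle genes differed in both directions. Of 31 cell cycle genes and inhibitors, 30 were tested, 2 at least 2-fold higher and 4 at least 2-fold lower in MC38, together 20% of those tested, beside 35.3% of all genes, and the median log2 difference was 0.01. The 2 were the INK4 inhibitors on chromosome 4: Cdkn2b had 32.1, 30.5, 33, 37.7 and 43.6 CPM in MC38 and 0 CPM in all 6 CT26 libraries, at least 1220-fold higher in MC38. Cdkn2a, which encodes p16 and p19ARF, had 2.21, 1.78, 2.07, 2.14 and 2.26 CPM in MC38 and 0 CPM in all 6 CT26 libraries, at least 71.7-fold higher. CT26 held no count of either gene in 6 libraries. The 4 lower genes were the cyclins Ccne1 (-1.58 ± 0.07) and Ccne2 (-1.23 ± 0.05) and the inhibitors Cdkn1a (-1.31 ± 0.04) and Cdkn2d (-1.26 ± 0.06). Aurka did not differ by call (0.05 ± 0.05). Mcm3 was not called over all libraries (-0.03 ± 0.05), but by edgeR it was called lower in libraries 1 to 3 (-0.13, adjusted p = 0.0314) and higher in libraries 4 to 6 (0.13, adjusted p = 0.0415).

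Most tested genes induced by p53 were called lower in MC38. In the list of p53 and its targets, 18 of 20 were tested, 4 were higher and 13 lower by call. Over all genes, 45.2% were called higher and 41.1% lower. In the list, 4 were at least 2-fold higher and 7 at least 2-fold lower in MC38 (median log2 difference -0.51). Mdm2, the ligase that limits p53 and is itself a target, had 66.2, 69.4, 71.4, 75.1 and 63.7 CPM in MC38 and 247 to 296 CPM, median 276, in CT26 (-1.97 ± 0.05, adjusted p = 2.9e-17). Ccng1, another target, had 90.4, 99.6, 105, 143 and 134 CPM in MC38 and 289 to 400 CPM, median 348, in CT26 (-1.58 ± 0.05, adjusted p = 4.4e-16). Fas, the death receptor, went the other way at 8.26, 8.26, 9.39, 15.8 and 14.3 CPM in MC38 and 0.255 to 0.661 CPM, median 0.512, in CT26 (4.47 ± 0.17, adjusted p = 9.8e-15), and Sesn1 did so too (2.79 ± 0.08). Trp53 itself had 81.1, 80.8, 73.5, 62.8 and 66.5 CPM in MC38 and 59.3 to 79.3 CPM, median 65.7, in CT26 and was not called (0.09 ± 0.04, adjusted p = 0.075).

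Feedback genes and targets of the RAS and MAPK pathway were mostly lower in MC38, with 31 of 32 tested, 3 at least 2-fold higher and 17 at least 2-fold lower (14.8% of all genes were), and a median log2 difference of -1.20. The phosphatase Dusp4, which switches off ERK, had 3.34, 3.55, 3.32, 3.23 and 3.61 CPM in MC38 and 46.8 to 78.4 CPM, median 60.2, in CT26 (-4.19 ± 0.09, adjusted p = 4e-18). Tgfa, a ligand of the EGF receptor, had 0 CPM in all 5 MC38 libraries and 6.1 to 9.74 CPM, median 7.98, in CT26, at least 320-fold lower in MC38, while the receptors Egfr, at 15.4, 16.9, 17.1, 16.8 and 15.8 CPM in MC38 and 0 to 0.301 CPM, median 0.129, in CT26 (6.85 ± 0.2, adjusted p = 1.8e-16), and Erbb3 (5.31 ± 0.1) were higher, so ligand and receptors of this family stood on opposite sides. The ligands Ereg (-3.55 ± 0.11), Areg (-3.23 ± 0.18) and Hbegf (-3.26 ± 0.06) and the inhibitor Spry4 (-3.43 ± 0.07), named after their values were seen, were lower as Tgfa was, and Spry1 was at least 104-fold higher.

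In the TGF-beta and YAP list, 29 of 31 were tested, 6 at least 2-fold higher and 7 at least 2-fold lower in MC38 (median log2 difference 0.24). The ligands Tgfb2 (4.74 ± 0.17) and Tgfb3 at 55.5, 51, 47.7, 36.9 and 43.1 CPM in MC38 and 5.16 to 9.25 CPM, median 6.71, in CT26 (2.71 ± 0.08, adjusted p = 1.9e-16) were higher. The YAP target Ccn2 was lower, at 0.167, 0.578, 0.225, 0.0872 and 0.238 CPM in MC38 and 11.4 to 19.2 CPM, median 14.2, in CT26 (-5.83 ± 0.17, adjusted p = 3.4e-16). Ccn1, another such target, was at 11.9, 12.8, 13.8, 10.5 and 11.9 CPM in MC38 and 64.1 to 114 CPM, median 85.6, in CT26 (-2.85 ± 0.08, adjusted p = 2.7e-16), and the kinase Lats2, which restrains YAP, was lower too (-1.92 ± 0.05). Smad4 was expressed in both lines (0.34 ± 0.04), and Inhba, a subunit of activins, was not called over all libraries (-0.15 ± 0.08, adjusted p = 0.096). By edgeR it was called lower in MC38 in libraries 1 to 3 (-0.38, adjusted p = 2.97e-06) and higher in libraries 4 to 6 (0.18, adjusted p = 0.00546).

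**Figure D5:**
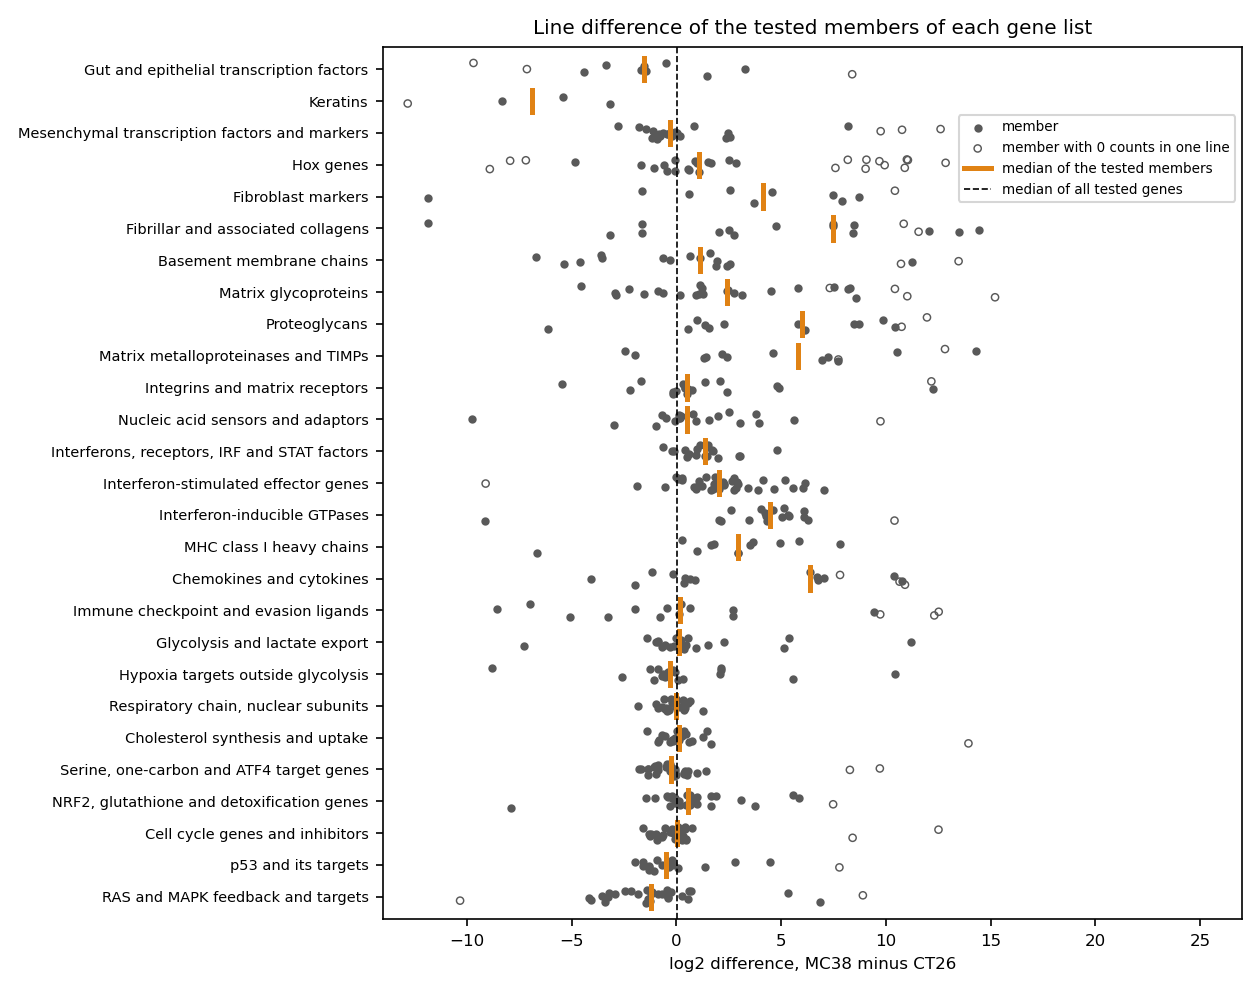
Log2 difference between MC38 and CT26 (horizontal axis) of each tested member of 27 gene lists, with the median of each list in orange and the median of all tested genes (0.05) as a dashed line. Open circles are members without a count in a line, whose position depends on the prior count. Collagens, proteoglycans, metalloproteinases, chemokines and interferon-inducible GTPases lie to the right, keratins and RAS and MAPK genes to the left, and respiratory chain, cholesterol and cell cycle genes around 0.

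The line difference depended on the number range in 1222 genes (9.09% of 13436), 954 with a larger MC38 minus CT26 value in libraries 4 to 6 and 268 with a smaller one. This count changed when any single library was left out. It was 578, 520, 803, 820 and 652 without MC38 library 1, 2, 3, 4 or 5. Without CT26 library 1, 2, 3, 4, 5 or 6 it was 897, 973, 1550, 838, 797 and 885. The genes with the largest such change were at a low level in at least 1 line. Serpine2, an inhibitor of thrombin and plasminogen activators, had 89.5, 83.8, 88.6, 54.8 and 56.6 CPM in MC38, against 0 CPM in CT26 libraries 1 to 3 and 0.292 to 0.446 CPM in CT26 libraries 4 to 6, so that traces in CT26 set its fitted change of -6.47 (adjusted p = 0.00022). Iqgap2 and Gab3 had no count in CT26 libraries 4 to 6 and up to 0.259 CPM in CT26 libraries 1 to 3, and their fitted changes were 5.13 and 5.09. Apobr, an apolipoprotein B receptor, had 2.21, 1.9, 1.89, 0.392 and 0.833 CPM in MC38 and 21.2 to 26.2 CPM, median 24.2, in CT26, and its line difference was -3.53 in libraries 1 to 3 and -5.28 in libraries 4 to 6. Gm9797, Gm28321, Gm49358 and Plet1, the others named by the rule, stayed below 5 CPM in every library. Such fitted changes depend on the prior count. Xist, the RNA of X inactivation, stayed at 0.626 to 1.26 CPM in MC38 and 0.324 to 0.764 CPM in CT26 (log2 difference 0.88 ± 0.25, adjusted p = 0.0031), and the Y-linked genes of the list were at 0 or near it in both lines.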

How the data were processed

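Gene counts came from the authors' deposited mouse table of expected counts, estimated with RSEM 1.3.1 after cutadapt 1.18 and STAR 2.7.0f on mm10, per the submitters' processing notes. The strand setting and the role of limma, also named there, are not given in the sources used here. Another 46 per-sample columns were not used. Expected counts were rounded, and genes were kept by edgeR 4.0.16's filterByExpr with a minimum count of 10 (R 4.3.3). TMM factors and a quasi-likelihood fit with terms for number range (1 to 3 or 4 to 6) and line followed, with Benjamini-Hochberg adjustment over all tested genes. Depth per library is given above, and counting intervals and floors cover counting error only. DESeq2 1.42.0, limma-voom 3.58.1, other scalings, filters and left-out libraries were tried as alternatives.

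All 55450 gene identifiers matched GENCODE vM21. Genes were named by a rule: the 12 highest and 12 lowest called genes without overlap, up to 6 most and 2 least different members of each list, class I heavy chains, a short list of landmark genes and the genes whose difference changed most between ranges. A few genes this rule names are not reported here, and the counts of the lists include them. The comparison, its 40 lists and this rule were chosen with earlier results of these data known. MC38 and CT26 differ in strain, and reads of both were counted on the C57BL/6J reference.

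Same-numbered libraries deviated together from their line means (r = 0.158 to 0.354 in 5 pairs), so the numbers were treated as pairs in an alternative. Differently numbered libraries of the same range did so too, and from range means the 5 values were -0.094 to 0.074. Simulated counts gave both lines the CT26 means, with 200 genes changed, as many up as down. There, 50 of 50 changed genes were recovered at each fold, with 10 false calls among 11961 unchanged genes. In the data 86.3% of genes were called, so a simulation with few and balanced changes cannot test the scaling between the lines.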

Additional observations from a re-analysis of the deposited data

Results flagged for a closer look

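A single library stood far from the others of its line in 11 of 430 sets of libraries tested. Such a flag is raised in about 1 in 20 sets when all libraries vary alike. That rate does not apply here, since each set pooled number ranges that differed in 46% of genes. In CT26 library 3, Cdx2 was at 1.27 CPM (others at most 0.891), Col1a1 at 32.7 CPM (others at most 23.5), Erbb3 at 2.59 CPM (others at most 1.69) and Slc2a1 at 115 CPM (others at most 92 CPM). In the other CT26 libraries, Tgtp2 was at 3.21 CPM in library 1 and Xist at 0.764 CPM in library 4. In MC38 library 3, Asns was at 187 CPM and Cdh2 at 22.7 CPM, in library 5 Gapdh was at 2420 CPM, and in library 1 H2-T10 was at 16.6 CPM, all above the other MC38 libraries. Hoxa7 in MC38 library 4, at 11.1 CPM, was below the others.

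For 48 of the 296 genes named, the line difference itself differed between libraries 4 to 6 and libraries 1 to 3 by edgeR's quasi-likelihood test of the interaction. Over all 13436 genes, 1222 (9.09%) did so. Some of the 296 were named because this change was among the largest, so the 48 are partly set by the naming rule. Values are the log2 difference in libraries 4 to 6 minus that in libraries 1 to 3. Among interferon and MHC class I genes it was 0.85 for Ifih1, 0.89 for Isg15, 0.86 for Ifit3, 1.14 for Ifit3b, 1.44 for Cmpk2, 0.65 for Samd9l, 0.64 for Sp100, 0.63 for Gbp2, 0.65 for Gbp7, 2.45 for Iigp1, 0.95 for Tgtp2, 0.52 for Tap1 and -0.64 for Nlrc5. Among matrix and protease genes it was 1.24 for Col3a1, 0.33 for Col8a1, 1.08 for Fbln5, 0.36 for Ltbp1, 0.34 for Lamc1, 0.87 for Ogn, -0.57 for Vcan, 1.57 for Plat and -6.47 for Serpine2. Among lineage and mesenchymal genes it was 0.67 for Vim, 0.54 for Zeb1, 0.63 for Snai2, 0.65 for Twist1, 0.27 for Pdgfra, -0.54 for Smtn and -1.52 for Lgals4. Among growth and signalling genes it was 0.66 for Dusp4, 0.72 for Ereg, 0.43 for Spry4, 0.55 for Ccn1, 0.59 for Inhba, 0.47 for Sesn1 and 0.28 for Mcm3. Among metabolic and other genes it was 0.26 for Hif1a, -0.25 for Vegfa, 0.52 for Scd1, 0.48 for Insig1, 0.36 for Ptgs2, -1.73 for Apobr, -1.82 for Plet1, 5.09 for Gab3, 5.13 for Iqgap2, 2.43 for Gm28321, 2.30 for Gm49358 and -5.28 for Gm9797.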

How the results depend on the processing

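The counts of called and of 2-fold genes stayed within 1.5 times under every alternative run, with 5935 genes higher and 5384 lower with the replicate block. The replicate block ended the call of Phlda3 (-0.13, adjusted p = 0.084), besides Cgas and Samd9l, and changed no other call among the genes named by the rule. Of 6903 alternative values of 301 tested genes named by the rule, 6786 kept their side of the threshold. Called genes among these also kept their direction, but a change of sign without a call in either fit is included. Of the rest, 59 lost the call, 34 gained it and 24 reversed with a call in at least 1 of the fits. Leaving out 1 library at a time moved the count of genes whose line difference differed between ranges to between 520 and 1550, beside 1222. The exact permutation test of the mitochondrial share over all splits gave -1.769 points (p = 0.115). Library totals alone, which raise the median of all genes to 0.24, reversed Cd44 (0.033), Lrig1 (0.0023), S100a4 (0.12), Plod3 (0.032), Tbk1 (0.12), Jak2 (0.051), Vegfa (0.014), Gapdh (0.17), Hif1a (0.12), Cox5a (0.17), Atp5b (0.15), Me1 (0.18), Scd2 (0.013), Slc3a2 (0.18), Slc7a1 (0.11), Txnrd1 (0.12), Mcm3 (0.16) and Phlda3 (0.014), and split the calls into 7067 higher and 4504 lower. Libraries 1 to 3 alone reversed Aldoa (-0.15), and libraries 4 to 6 alone reversed Cox5a (0.14), Mcm3 (0.13), Inhba (0.18), Gm9797 (-3.41) and Gm49358 (0.29). Depth limits genes below about 1 CPM, whose folds rest on a few counts, and the cause of the other reversals was not tested.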

Other observations

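The line difference was uneven along the genome, and the autosomes with the most extreme medians are named. Over all tested genes, 45.2% were called higher and 41.1% lower in MC38. Of 1016 tested genes on chromosome 11, 72.4% were higher in MC38 (median log2 difference 0.64), and on chromosomes 8 and 19 the medians were 0.49 and 0.48. On chromosome 1, 63.8% of 806 genes were lower in MC38 (median -0.48), and on chromosome 6, 64.3% of 645 were lower (median -0.48). Genes of a chromosome are not independent, and no test was made.

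Some genes with at most 3 counts over the CT26 libraries and at least 1 CPM in MC38 lay side by side, with no expressed coding gene between them. On chromosome 4 (mm10, 89274471 to 91400785), Cdkn2a, Cdkn2b, Dmrta1 and Elavl2 had 248, 4206, 1751 and 1964 counts in MC38 and 0 in CT26. Mtap, which lies next to Cdkn2a and encodes a methionine salvage enzyme, had 515.6 ± 36.6 CPM in MC38 (SD, n = 5) and 320.1 ± 17.6 CPM in CT26 (SD, n = 6). Other such runs in CT26 held Hoxd13 to Hoxd9 on chromosome 2, Hoxc13 to Hoxc10 on chromosome 15, Ccl7, Ccl11 and Ccl8 on chromosome 11, and Sgce, Peg10 and Ppp1r9a on chromosome 6. MC38 had 1 run of this kind, Astl, Adra2b and Gpat2 on chromosome 2.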
